A study of Homo sapiens with 9 samples.

Results

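The genes described here are the numbered ZNF genes, which encode zinc finger proteins, that reached a set signal level in WM266-4 cells. This is a long-established line grown from a metastasis of a human melanoma. A gene was taken where its symbol is ZNF followed by a number and at most 1 letter and where its mean log2 intensity over 9 microarrays was 6.5 or more. ZNF287, which meets that rule, was also picked out because of its difference between the mimic and control arrays in an earlier look at these data. Of 471 such ZNF genes in the table, 232 reached 6.5 and 239 did not, among 14812 genes in all, of which 6783 reached 6.5. The median over all genes was 6.25 and no detection call was used, so expressed here means only a level of 6.5 or more. Of the 232, 230 are protein-coding and 2, ZNF271P and ZNF767P, are transcribed pseudogenes.

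Every group is WM266-4 carrying GFP and transfected with Lipofectamine 2000, with total RNA taken 48 h later. A control microRNA at 0.5 nM was given in 3 cultures, a miR-199a-3p mimic at 0.5 nM in 3, and the same mimic at 0.25 nM in 3, described as biological triplicates. The 0.25 nM group had no control of its own dose, so the amount of small RNA differed there too. Since each culture was measured in bulk, fewer cells of a kind and less RNA per cell cannot be told apart.

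Numbered ZNF genes mostly encode C2H2 zinc finger proteins, in which each finger folds around a zinc ion and reads a short stretch of DNA. Many carry a KRAB domain, which binds the corepressor TRIM28 (KAP1) and through it the H3K9 methyltransferase SETDB1 and HP1 proteins, and many of these silence retroelements. A SCAN domain, found in some, pairs such proteins with each other. The family expanded by repeated tandem duplication, with large arrays of related genes on chromosome 19. A minority act elsewhere, as promoter-binding activators, splicing factors, ribosome assembly factors or spindle proteins.

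The mimic is shown with its seed, bases 2 to 8, in capitals, because base pairing of the seed with transcripts is what sets the targets of a microRNA. The sequence is RefSeq's mature miR-199a-3p, 22 bases, 5′ to 3′.
miR-199a-3p: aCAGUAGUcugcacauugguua
A site that pairs with this seed reads ACTACTG in DNA letters. Seed sites in the transcripts of the ZNF genes were not analysed here.

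Before the results, a property of the table has to be known. On all 3 arrays of a group the value was exactly the same in 47.8% of rows for the control, 48.6% for 0.5 nM and 42.0% for 0.25 nM, while 0 values were equal between arrays of different groups. The spread within a group is therefore too small as a measure of error, and a test that rests on it calls most genes. In replicate 3 of the 0.25 nM group, 0 values had 0 as their first decimal, against 4178 to 4774 on every other array, so values there with under 10 digits were left out. That left 46 of the 232 ZNF genes with 2 values at 0.25 nM. Arrays were shifted to one median, which took 0.09 from each change at 0.5 nM and 0.16 from each at 0.25 nM, so a change below is relative to the median gene. Melanocytic identity was checked first: 10 of 10 measured melanocytic markers reached 6.5 in control cells, tyrosinase (TYR) at 12.74 among them. Of 4 measured markers of undifferentiated melanoma, 3 reached 6.5 in control cells too. These were SOX9, AXL (8.75) and NGFR (6.61), while EGFR (4.60) did not. The cells thus did not show melanocytic markers alone. Of markers of other cell types, 1 of 9 keratinocyte, 0 of 2 fibroblast, 0 of 1 endothelial and 1 of 2 immune genes reached 6.5. The summed level of the immune list, which is CD68 almost alone, was 9.96 to 10.07 on control arrays, 9.60 to 9.72 at 0.5 nM and 9.39 to 9.52 at 0.25 nM. Of the other lists, all but the fibroblast one also stood apart from control at 0.5 nM, 0.25 nM or both. The keratinocyte sum was 8.62 to 8.66 in control and 8.42 to 8.49 at 0.5 nM. The undifferentiated melanoma sum was 10.04 to 10.06 in control and 9.75 to 9.94 at 0.25 nM. The melanocytic sum was 14.22 to 14.26 in control and 14.13 to 14.18 at 0.25 nM. What part these shifts have in the results below was not tested.

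Signals of the 232 genes ran from 6.51 to 11.80 log2 units, with a median of 7.35 and the middle of the range between 6.85 (25th percentile) and 7.90 (75th). Signals of 76 genes lay from 6.5 up to 7, 107 from 7 to 8, 39 from 8 to 9, 9 from 9 to 10, and 1 lay higher. The brightest row was ZNF106, an RNA-binding protein of nuclear speckles, at 11.80. After it came ZNF207 (the spindle factor BuGZ) at 9.94, ZNF827 (which brings the NuRD complex to telomeres) at 9.91, ZNF121 at 9.88, ZNF146 at 9.81, ZNF12 at 9.76, ZNF317 at 9.33, ZNF800 at 9.22, ZNF326 at 9.17 and ZNF134 at 9.08. A signal depends on the probes of its row as well as on the RNA, so this is an order of signals and not of transcript amounts. At the threshold, ZNF862 (6.508), ZNF275 (6.514) and ZNF7 (6.529) lay just inside, and ZNF41 (6.488), ZNF420 (6.490) and ZNF688 (6.494) just outside. Rows around 6.5 thus form a continuum, with no gap that would set the genes apart. In 13 of the 232 genes the 2 lower group means averaged under 6.5, so these are members only through the group where they read highest. The genes described by name among them are ZNF17, ZNF320, ZNF524, ZNF37A, ZNF485, ZNF385B, ZNF275, ZNF7 and ZNF862. A difference between groups was in part built into their choice, so their values are given as a description with no test.

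**Figure D1:**
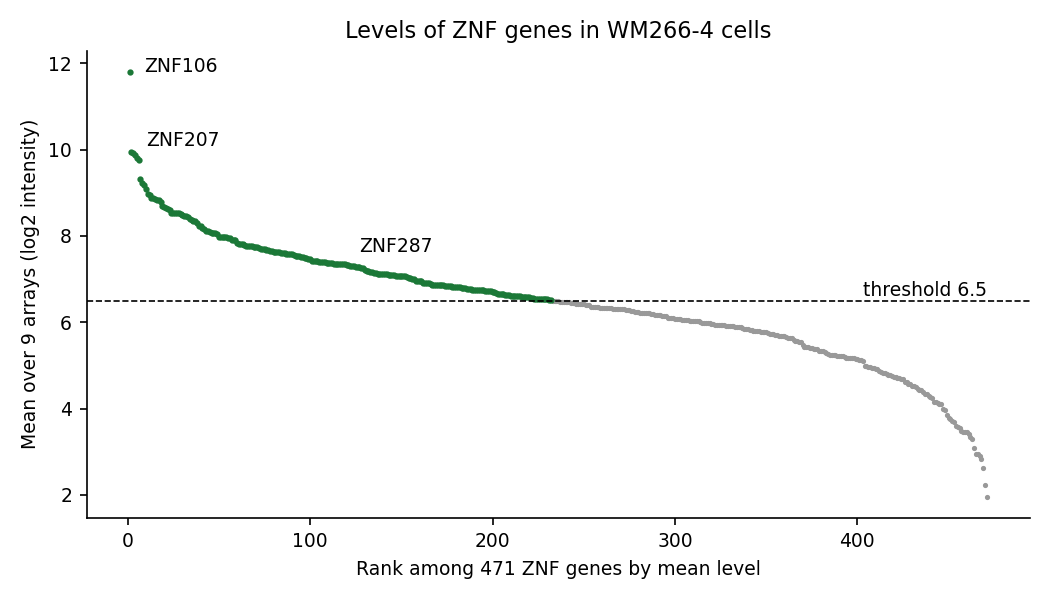
Mean log2 intensity over 9 arrays (vertical axis) of the 471 ZNF genes by rank (horizontal axis). Green points are the 232 genes at 6.5 or more and grey points the 239 below, the dashed line is the threshold, and ZNF106 stands alone at 11.80 while the curve crosses 6.5 without a step.

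ZNF287, a SCAN and KRAB zinc finger protein, was the member with the largest difference from control. Its control arrays read 6.71, 6.75 and 6.75, its 0.5 nM arrays 7.72, 7.71 and 7.66, and its 0.25 nM arrays 7.59, 7.57 and 7.57. Every mimic array was far above every control array, and the 0.5 nM arrays were all slightly above the 0.25 nM arrays. The differences of means were 0.97 at 0.5 nM and 0.84 at 0.25 nM, and 0.91 for the mean of the doses. Across 16 other ways of processing the values and leaving out arrays, that last difference stayed between 0.89 and 1.03. Because ZNF287 was picked for this difference, the values are a description and carry no test. Its RefSeq promoter, 250 bases before to 50 after the transcription start, is shown because ZNF287 is the member the contrast singled out. All its letters are in lower case since neither of the motifs marked in the promoters shown later lies in it.
ZNF287 promoter, GRCh38.p14 chr17:16569155-16569454, - strand: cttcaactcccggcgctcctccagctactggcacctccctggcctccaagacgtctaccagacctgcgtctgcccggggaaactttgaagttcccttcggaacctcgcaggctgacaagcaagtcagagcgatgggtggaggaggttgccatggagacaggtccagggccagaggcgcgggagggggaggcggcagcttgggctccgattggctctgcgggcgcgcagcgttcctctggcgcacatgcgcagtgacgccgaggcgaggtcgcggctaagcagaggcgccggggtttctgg

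The 232 genes were compared in 3 ways with limma, a linear model with moderated variances over all 14812 genes, and Benjamini-Hochberg adjusted p-values under 0.05. Against control at 0.5 nM, 112 of 232 ZNF genes (48.3%) passed this within-group test, 49 higher, ZNF287 counted in, and 63 lower; without the 13 genes that owe their place to 1 group these were 43 and 60. The background was 63.3% of all genes called, 33.2% higher and 30.1% lower, and 52.3% among genes at 6.5 or more, so the share of ZNF genes called was below the background. At 0.25 nM, 113 (48.7%) passed, 48 higher and 65 lower (45 and 62 without those 13), against 64.2% of all genes called, 30.3% higher and 33.9% lower, and 54.2% of genes at 6.5 or more. With the arrays not shifted the splits turned: 83 higher and 35 lower at 0.5 nM, and 108 higher and 22 lower at 0.25 nM. Of all genes, 65.1% were then called at 0.5 nM, 45.0% higher and 20.1% lower, and 67.8% at 0.25 nM, 50.7% higher and 17.1% lower. The direction of the ZNF genes as a group is thus set by the scaling.

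The changes were spread much as in other genes at 6.5 or more. The median change of the 232 was -0.017 at 0.5 nM, with an SD over genes of 0.21, and -0.025 at 0.25 nM, with an SD of 0.21. Over all 6783 genes at 6.5 or more the medians were -0.018 and -0.037 and the SDs 0.21 and 0.22. A change of 0.5 log2 units or more in size was seen in 7 ZNF genes at 0.5 nM and 8 at 0.25 nM. Such changes were seen in 179 and 222 of the 6783 genes at 6.5 or more, and in 1485 and 1517 of all 14812 genes. The 7 include ZNF287, ZNF320, ZNF17 and ZNF37A, and the 8 include ZNF287 and ZNF385B, whose differences had a part in their choice. Arrays of mimic and control did not overlap for 141 ZNF genes at 0.5 nM, where this held for 74.2% of all genes, and for 142 at 0.25 nM, where it held for 74.4%. These shares are near or under those of the whole table, so they single out no ZNF response.

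**Figure D2:**
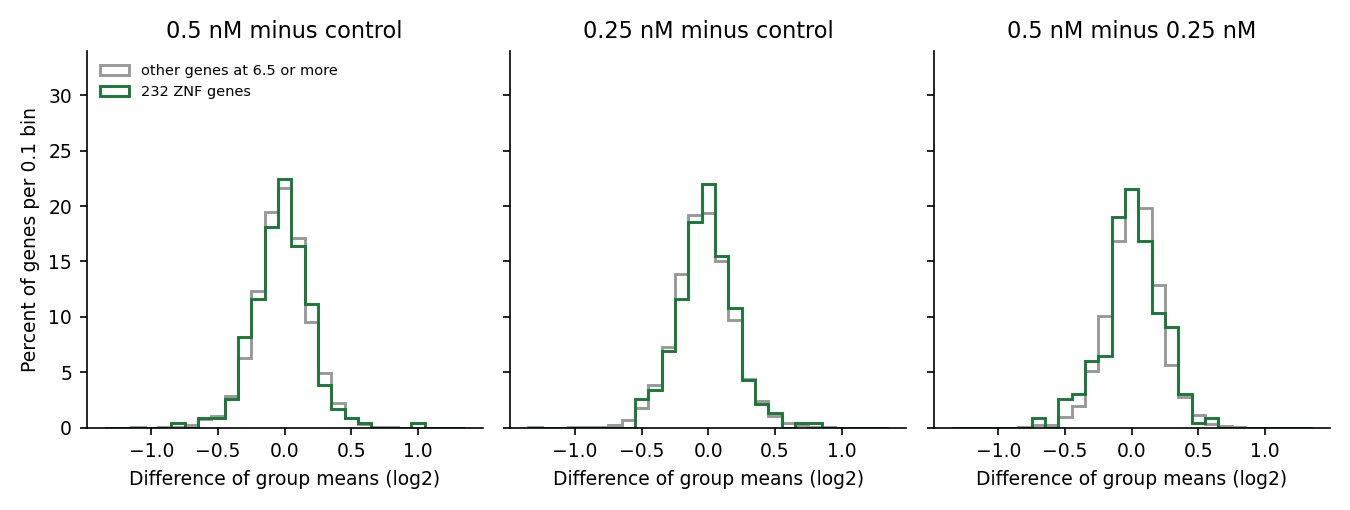
Distribution of the difference of group means (log2, horizontal axis, bins of 0.1) as percent of genes (vertical axis) for the 232 ZNF genes (green) and the other genes at 6.5 or more (grey), in the 3 comparisons. The green and grey outlines lie over each other around 0, with medians of -0.017, -0.025 and 0.0032 for the ZNF genes, and ZNF287 is the isolated green bin at the right of the first panel.

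At 0.5 nM the largest differences upward beside ZNF287 were of ZNF320, ZNF17, ZNF524, ZNF143, ZNF32, ZNF276 and ZNF490. ZNF143, the activator of snRNA promoters that also sits at promoter ends of chromatin loops, read 7.43 on all 3 control arrays and 7.88, 7.87 and 7.86 at 0.5 nM, a rise of 0.44 (SE 0.055, limma adjusted p = 2.85e-04). ZNF276 read 6.40, 6.66 and 6.66 in control and 6.93, 6.92 and 6.92 at 0.5 nM, a rise of 0.35 (SE 0.066, adjusted p = 0.00253). Groups did not overlap for either gene. ZNF32 rose by 0.43 and ZNF490 by 0.31, and none of these 4 calls was lost by leaving out any 1 of the 9 arrays. Many of their arrays are tied or nearly tied within a group, so leaving 1 out could change little and shows little. The other 3 reached 6.5 only through their 0.5 nM arrays. ZNF17, a KRAB protein, read 6.38, 6.38 and 6.21 in control and 6.88, 6.87 and 6.77 at 0.5 nM, a difference of 0.51. ZNF524 read 6.46, 6.46 and 6.32 in control and 6.91, 6.90 and 6.90 at 0.5 nM, a difference of 0.49. ZNF320 differed by 0.59, and its replicate 3 at 0.5 nM (6.73) lay nearest its control.

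The largest differences downward at 0.5 nM were of ZNF92, ZNF37A, ZNF302, ZNF830, ZNF485, ZNF445, ZNF649 and ZNF253. ZNF92, a KRAB protein, read 7.22, 7.60 and 7.61 in control and 6.59, 6.78 and 6.61 at 0.5 nM. The first control array was the lowest of its group and still above every mimic array, and the gene fell by 0.82 (SE 0.11, limma adjusted p = 4.30e-04). ZNF302, another KRAB protein, read 7.27 on all 3 control arrays and 6.67, 6.71 and 6.71 at 0.5 nM, and fell by 0.57 (SE 0.013, adjusted p = 1.78e-08). ZNF830, a spliceosome-associated protein, read 8.46, 8.47 and 8.46 in control and 7.92, 7.91 and 7.91 at 0.5 nM, and fell by 0.55 (SE 0.014, adjusted p = 2.19e-07). Groups stood clearly apart for both genes. ZNF445, the KRAB protein that maintains genomic imprints, read 7.18 on all 3 control arrays and 6.73, 6.79 and 6.72 at 0.5 nM, and fell by 0.43. A second, dimmer row of ZNF445 at 5.13 differed by -0.21, and the call was lost with the mean of its rows (-0.32). The KRAB proteins ZNF649 and ZNF253 fell by 0.42 and 0.38, and no call of these 6 genes was lost by leaving out an array. In several of the 6, arrays are tied or nearly tied within a group, so this too shows little there. ZNF37A and ZNF485 would not have reached 6.5 on their 0.5 nM arrays and 1 other group. ZNF37A read 6.73 on all 3 control arrays and 6.20, 6.18 and 6.05 at 0.5 nM, a difference of -0.58, and ZNF485 differed by -0.46.

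**Figure D3:**
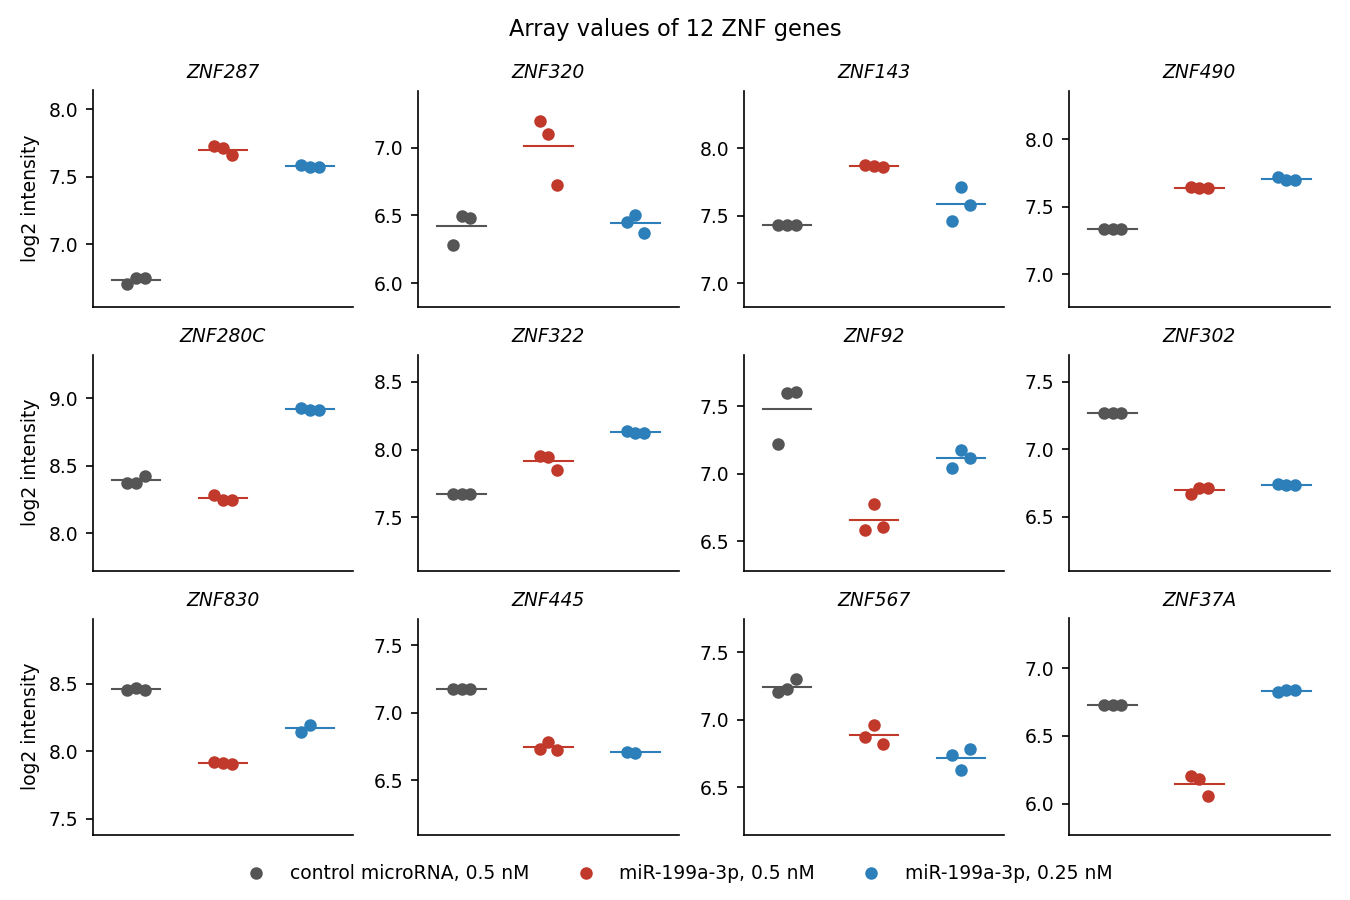
Log2 intensity (vertical axis, each panel spanning the same range) of 12 ZNF genes on the arrays of control (grey), 0.5 nM mimic (red) and 0.25 nM mimic (blue), with a line at each group mean. ZNF302 has 7.27 on every control array and 6.67 to 6.74 on every mimic array, ZNF280C is high at 0.25 nM alone, and ZNF37A is low at 0.5 nM alone. ZNF830 and ZNF445 have 2 values at 0.25 nM.

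At 0.25 nM, which was measured against the same control arrays, the largest differences upward beside ZNF287 were of ZNF385B, ZNF280C, ZNF878, ZNF322, ZNF107, ZNF490 and ZNF841. ZNF280C, one of the relatives of the fly protein Su(Hw), read 8.37, 8.37 and 8.43 in control and 8.93, 8.91 and 8.91 at 0.25 nM, a rise of 0.53 (SE 0.018, limma adjusted p = 1.61e-07). ZNF490, a KRAB protein, read 7.33 on all 3 control arrays and 7.72, 7.70 and 7.70 at 0.25 nM, a rise of 0.37 (SE 0.0084, adjusted p = 1.87e-08). Neither gene had arrays of the groups near each other. ZNF322 read 7.67 on all 3 control arrays and 8.14, 8.12 and 8.12 at 0.25 nM, a rise of 0.46. Its second row, at 5.99, went the other way (-0.26), and the call was lost with the mean of the rows. That mean gave 0.47, above the change of either row, so it is not read as a change. Left-out values are skipped in it, so an array can rest on 1 row alone. ZNF385B, a protein with RNA-binding type fingers, read 6.52, 6.21 and 6.21 in control and 7.16 and 6.92 on the 2 arrays left at 0.25 nM. Its difference of 0.72, which lay between 0.61 and 0.84 without control replicate 2 or 3 or without either 0.25 nM array, is what brought it to 6.5, so it is a description. ZNF841 rose by 0.35, a call lost without control replicate 1 (0.25) and without 0.25 nM replicate 1 (0.36), 2 or 3 (0.35). The remaining rises were 0.50 for ZNF878 and 0.41 for ZNF107.

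The largest falls at 0.25 nM were of ZNF302, ZNF567, ZNF749, ZNF462, ZNF629, ZNF445, ZNF808 and ZNF584. ZNF302 read 6.74, 6.73 and 6.73 at 0.25 nM against its 7.27 in control, and fell by 0.53 (SE 0.013, limma adjusted p = 2.65e-08). ZNF567, a KRAB protein, read 7.21, 7.23 and 7.30 in control and 6.74, 6.63 and 6.78 at 0.25 nM, and fell by 0.53 (SE 0.051, adjusted p = 6.31e-05). Neither overlapped with control. ZNF462, a large protein linked to chromatin and development, read 8.49, 8.41 and 8.49 in control and 7.97 and 7.95 on 2 arrays at 0.25 nM, and fell by 0.50 (SE 0.031, adjusted p = 1.65e-05). ZNF808, a KRAB protein with a part in pancreas development, read 7.04 on all 3 control arrays and 6.73, 6.56 and 6.56 at 0.25 nM, and fell by 0.42. ZNF445 read 6.71 on each of 2 arrays at 0.25 nM and fell by 0.47, a call lost with the damaged values kept (-0.25). Its second row differed by 0.37. The mean of its rows gave -0.25 with no call, but on replicate 3 that mean lacks the brighter row, so it is not read as a change. ZNF749 fell by 0.51, but its first control array (6.64) lay near its 0.25 nM arrays (6.49, 6.54 and 6.47), and the call was lost without control replicate 2 (-0.47) and without 0.25 nM replicate 1 (-0.50) or 3 (-0.49), and with no shift of arrays (-0.35). The others fell by 0.50 for ZNF629 and 0.39 for ZNF584.

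Since the arrays of a group were tied, the groups were also compared as 1 unit each: control against the 2 mimic groups on the 3 group means, with the difference between doses as the error (group-level limma with an intensity trend). Of all genes, 19 (0.128%) passed this test, 4 of them higher (0.0270%). Of the 231 ZNF genes other than ZNF287, 0 passed, and the smallest adjusted p was 0.404. At an unadjusted p under 0.05 there were 9 (3.90%), 2 higher and 7 lower, where 6.56% of all genes had such a p. None of the 231 passed under any of 18 alternatives either. With no shift, quantile normalization or no intensity trend, or without 0.25 nM replicate 1 or 3, 0 of all genes passed. Those alternatives therefore say nothing about the ZNF genes. With other processing or another array left out, at most 47 of all genes (0.317%) passed. The 9 were ZNF92 (-0.59), ZNF302 (-0.55), ZNF445 (-0.45), ZNF567 (-0.44), ZNF830 (-0.42), ZNF584 (-0.37), ZNF398 (-0.34, named after its value was seen), ZNF322 (0.35) and ZNF385B (0.54, whose 0.25 nM arrays gave it its place). Among these 231 genes no change was detectable when each group counts as 1 unit.

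Of 36 ZNF genes listed for a known role, 31 were members; 6 were higher and 9 lower at 0.5 nM, and 3 higher and 13 lower at 0.25 nM, in the within-group test. The shares of all genes called, against which each count of a role is to be read, were 33.2% higher and 30.1% lower at 0.5 nM and 30.3% higher and 33.9% lower at 0.25 nM. Among 13 repressors and corepressor partners, 2 were higher and 5 lower at 0.5 nM, and 1 higher and 7 lower at 0.25 nM. The sister proteins ZNF592, ZNF532 and ZNF687 belong to the ZMYND8 coregulator complex. ZNF592 read 8.17 on all 3 control arrays, 7.85, 7.89 and 7.84 at 0.5 nM and 7.86 on all 3 arrays at 0.25 nM. It fell by 0.31 (SE 0.012, limma adjusted p = 2.80e-07) at 0.5 nM and by 0.32 (SE 0.012, adjusted p = 2.61e-07) at 0.25 nM. ZNF532 fell by 0.23 at 0.5 nM and by 0.11 at 0.25 nM, where it lay at 0.047 without the shift of arrays, and ZNF687 differed by -0.052 at 0.5 nM and fell by 0.18 at 0.25 nM (-0.027 and no call without the shift). ZNF217, an oncogene product that works with CoREST and CtBP, fell by 0.31 at 0.25 nM and by 0.044 at 0.5 nM, where the sign turned without the shift (0.046). ZNF827 was higher, by 0.23 and 0.091, and ZNF24, a SCAN repressor of VEGFA, rose by 0.13 at 0.5 nM and differed by 0.030 at 0.25 nM. ZNF644, a partner of the G9a and GLP methyltransferases, fell by 0.22 and 0.19. Its calls were lost without any 1 control array (-0.22 and -0.19), and that at 0.25 nM also with the replicate block (-0.18), without 0.5 nM replicate 3 (-0.19) and without any 1 array at 0.25 nM (-0.20 to -0.19). ZNF282 fell by 0.28 at 0.25 nM, a call lost without any 1 array except control replicate 1 (-0.30 to -0.20).

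The activators gave no common direction: of 6, 2 were higher and 1 lower at 0.5 nM (33.2% and 30.1% of all genes) and 2 higher and 2 lower at 0.25 nM (30.3% and 33.9%). ZNF410, which switches on the NuRD subunit gene CHD4, read 7.52, 7.52 and 7.49 in control, 7.67, 7.67 and 7.62 at 0.5 nM and 7.67, 7.65 and 7.65 at 0.25 nM. It rose by 0.14 at each dose (SE 0.017, limma adjusted p = 2.07e-04 and 1.73e-04). CHD4 itself differed by 0.033 at 0.5 nM and fell by 0.13 at 0.25 nM, where it lay at 0.023 without the shift of arrays. ZNF143, which rose at 0.5 nM, read 7.46, 7.71 and 7.58 at 0.25 nM, spread far wider than its control. Its rise of 0.16 there was not called with the replicate block, or without any 1 array except 0.25 nM replicates 1 and 2 (0.16 each time). The GC-box binding factor ZNF281 differed by 0.25 at 0.5 nM and fell by 0.28 at 0.25 nM. That call was lost without control replicate 2 (-0.24) or 3 (-0.23), any 1 array at 0.5 nM (-0.28) or 0.25 nM replicate 1 (-0.19), and its difference at 0.5 nM passed with the replicate block (0.25). ZNF148, its relative, fell by 0.053 and 0.064, and both signs turned without the shift (0.036 and 0.093).

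Of 8 ZNF proteins of RNA processing and translation, 2 were higher and 2 lower at 0.5 nM, where 33.2% and 30.1% of all genes were, and 3 lower at 0.25 nM, where 33.9% of all genes were. ZNF830 fell at 0.5 nM as given above, read 8.15 and 8.19 on 2 arrays at 0.25 nM and fell there by 0.29 (SE 0.016, limma adjusted p = 8.81e-06). ZNF593, a factor of 60S subunit maturation, read 7.27, 7.53 and 7.58 in control and 7.17, 7.16 and 7.16 at 0.5 nM. It fell by 0.30 at 0.5 nM, a call lost without control replicate 2 (-0.26) or 3 (-0.24), and differed by -0.20 at 0.25 nM, which passed with the replicate block (-0.20). ZNF106 and ZNF326 are given with the comparison of doses below. The SUMO ligase ZNF451 passed in neither comparison. The mitotic ZNF207 read 9.95 on all 3 control arrays and fell by 0.065 at 0.25 nM, where it lay at 0.092 without the shift. Of the 2 silencers of primate retroelements, ZNF91, which acts on SVA elements, fell by 0.27 at 0.5 nM (SE 0.044, adjusted p = 0.00106) and differed by -0.093 at 0.25 nM. ZNF93, which acts on L1 elements, passed in neither.

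**Figure D4:**
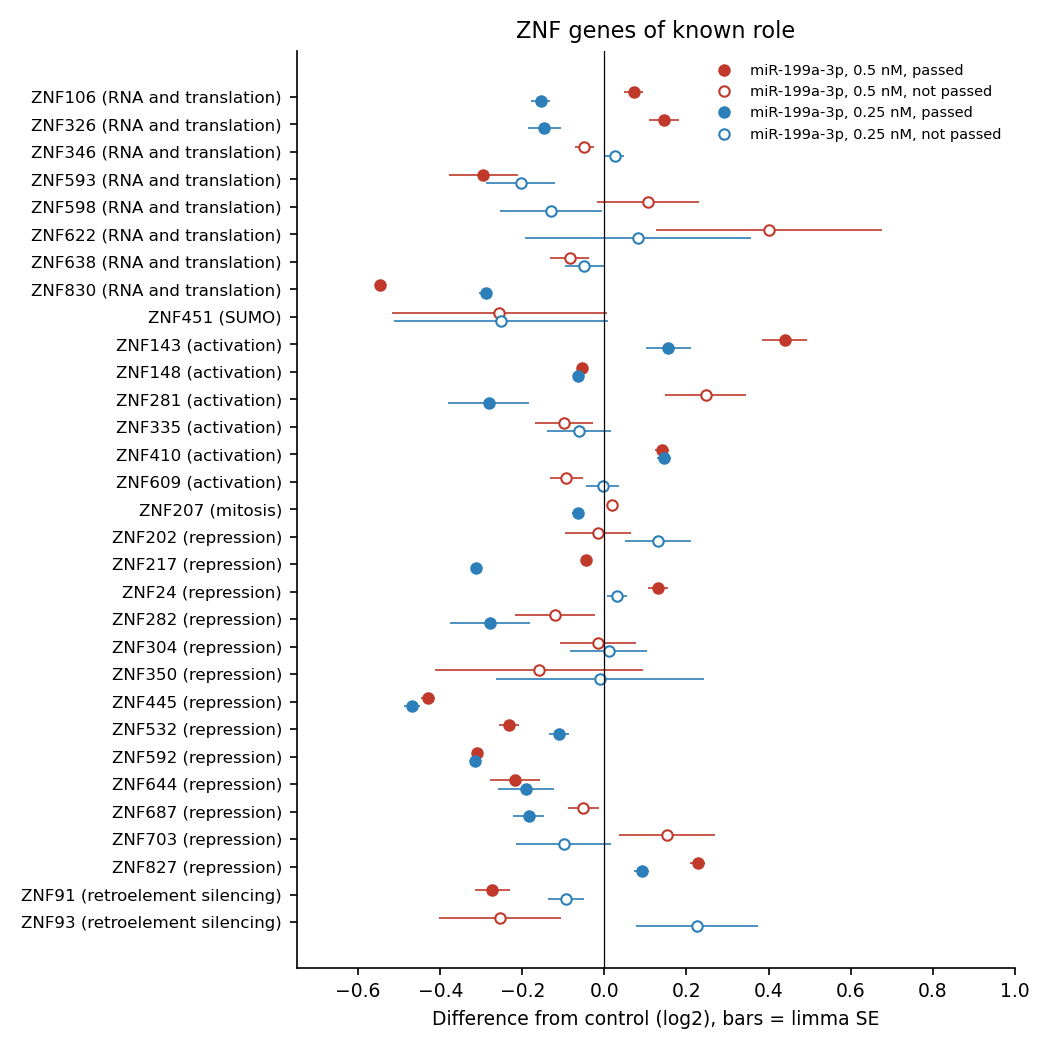
Difference from control (log2, horizontal axis) of the 31 ZNF genes with a listed role at 0.5 nM (red) and 0.25 nM (blue), with bars of the limma standard error; filled points passed the within-group test and open points did not. Points lie on either side of 0 in most roles, ZNF830 is the lowest at -0.55, and wide bars mark ZNF622, ZNF451 and ZNF350.

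The cofactors through which KRAB proteins act were measured for 25 of 30 listed genes. At 0.5 nM 6 were higher and 7 lower, 13 of 25 called against 63.3% of all genes, and at 0.25 nM 7 higher and 8 lower, 15 of 25 against 64.2%, with medians of -0.028 and -0.010. TRIM28, the central corepressor, read 10.17 ± 0.13 in control (SD, n = 3), differed by -0.042 at 0.5 nM and -0.17 at 0.25 nM, and passed in neither comparison. CBX1, an HP1 protein, rose by 0.27 at 0.5 nM, a call lost without control replicate 1 (0.25) or 0.5 nM replicate 2 (0.23), and by 0.44 at 0.25 nM. PPHLN1 (periphilin), of the HUSH silencing complex, fell by 0.40 at 0.25 nM (SE 0.0074, limma adjusted p = 6.88e-09) and by 0.072 at 0.5 nM, where it lay at 0.018 without the shift. ATRX rose by 0.22 at each dose, and the methyltransferase EHMT1 by 0.26 and 0.12. Other listed genes went the other way. DAXX fell by 0.21 at 0.5 nM and 0.065 at 0.25 nM, EHMT2 by 0.10 and 0.17, and HDAC1 by 0.12 and 0.10. SUV39H1 fell by 0.17 at each dose, CBX3 by 0.12 at 0.5 nM and CBX5 by 0.27 at 0.25 nM. The signs of DAXX and HDAC1 at 0.25 nM turned without the shift. DNMT1, the maintenance DNA methyltransferase, rose by 0.29 at 0.5 nM and differed by 0.019 at 0.25 nM. ZFP57, a KRAB protein of imprint maintenance like ZNF445, read 5.43 ± 0 in control and 5.11 ± 0.0097 at 0.25 nM (SD, n = 3 each) and fell by 0.32.

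Between the doses, 121 of the 232 ZNF genes (52.2%) passed the within-group test, 63 higher at 0.5 nM and 58 lower, against 62.2% of all genes, 35.0% higher and 27.2% lower. Without the 13 genes that owe their place to 1 group, 56 were higher and 55 lower. Their median difference was 0.0032. With no shift of arrays 38 were higher and 82 lower, where 26.7% of all genes were higher and 35.9% lower. Arrays of the 2 doses did not overlap for 145, of which 77 were higher at 0.5 nM, where this held for 72.2% of all genes, 40.6% higher at 0.5 nM. ZNF280C read 8.28, 8.25 and 8.25 at 0.5 nM, under its control, where its 0.25 nM arrays stood over it, and differed by -0.66 (SE 0.018, limma adjusted p = 5.13e-08). Of genes that owe their place to 1 group, ZNF37A read 6.82, 6.84 and 6.84 at 0.25 nM, slightly above its control and far above its 0.5 nM arrays, a difference of -0.69 between 0.5 and 0.25 nM. In the other direction ZNF524 read 6.34, 6.32 and 6.32 at 0.25 nM, a difference of 0.57, and ZNF320, whose 0.25 nM arrays overlapped with its control, also differed by 0.57. ZNF275 averaged 6.49 ± 0.0094 in control (SD, n = 3) and read 6.67, 6.77 and 6.66 at 0.5 nM and 6.37, 6.35 and 6.35 at 0.25 nM, a difference of 0.34. ZNF302 differed by -0.040 and ZNF592 by 0.0050, the latter short of the threshold. ZNF106 read 11.84, 11.84 and 11.80 in control, 11.91, 11.93 and 11.85 at 0.5 nM and 11.68, 11.66 and 11.68 at 0.25 nM, and differed by 0.23 between the doses (SE 0.024, adjusted p = 1.01e-04). Its rise of 0.071 against control was not called without control replicate 2 (0.078) or 3 (0.057), 0.5 nM replicate 1 (0.063) or 2 (0.054), or 0.25 nM replicate 3 (0.071), and its fall of 0.16 at 0.25 nM vanished without the shift of arrays (0.0011). ZNF326, of the DBIRD complex that links elongation and splicing, read 9.08, 9.19 and 9.19 in control, 9.28, 9.34 and 9.28 at 0.5 nM and 8.99 and 9.03 on 2 arrays at 0.25 nM. It was higher at 0.5 nM than at 0.25 nM by 0.29 (SE 0.040, adjusted p = 9.18e-04), having risen by 0.14 and fallen by 0.15 against control. The fall was not called without control replicate 2 or 3 (-0.13) or 0.25 nM replicate 1 (-0.12), and lay at 0.0078 without the shift.

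Some ZNF genes varied more within groups than between them. The members with the widest spread within groups were ZNF622, ZNF451, ZNF607, ZNF350 and ZNF484. ZNF350, the BRCA1 partner ZBRK1, read 6.67, 7.35 and 7.35 in control, 6.65, 7.16 and 7.08 at 0.5 nM and 6.74, 7.31 and 7.29 at 0.25 nM. ZNF622, a 60S maturation factor, read 7.38, 7.94 and 8.12, then 7.93, 8.48 and 8.24, then 7.42, 8.10 and 8.17 in the same order of groups. In each group the first replicate was the low one. In ZNF607 it was the high one, with 6.53, 6.29 and 6.29 in control and 7.15, 6.60 and 6.28 at 0.5 nM. Replicate 1 was the lowest array of every group in 24 of 186 ZNF genes with all 9 values (12.9%), against 17.7% of genes at 6.5 or more and 8.51% of all genes. It was the highest in 13 (6.99%), against 12.8% and 11.5%. With the replicate number as a block, ZNF622 (0.40) and ZNF350 (-0.16) passed at 0.5 nM, where neither passed without it.

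The expressed ZNF genes were concentrated on chromosome 19. Of the 232, 106 (45.7%) lay there, on a chromosome that held 7.08% of the genes at 6.5 or more. Next were chromosome 7 with 16, chromosome 16 with 15 and chromosome 1 with 12. Of the 106 on chromosome 19, 20 were higher and 28 lower at 0.5 nM, 17 higher and 28 lower at 0.25 nM, and 21 higher and 30 lower at 0.5 than at 0.25 nM. Of the 126 others, 29 were higher and 35 lower, then 31 higher and 37 lower, then 42 higher and 28 lower. Over all genes the shares were 33.2% higher and 30.1% lower, then 30.3% and 33.9%, then 35.0% and 27.2%. Direct neighbours among protein-coding genes made 48 pairs of members. The 2 genes of a pair differed in their change by a median of 0.170 at 0.5 nM and 0.223 at 0.25 nM, where all possible pairs of members differed by 0.189 and 0.193. Neighbours were thus no closer in their changes at 0.25 nM than members taken anywhere, and little closer at 0.5 nM.

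There were 15 uninterrupted runs of 5 or more ZNF genes with at least 3 members. In the run from ZNF566 to ZNF793 on chromosome 19, which holds ZNF567, all 4 members were lower at 0.5 nM (ZNF567 by 0.36, ZNF790 by 0.24, ZNF850 by 0.10 and ZNF529 by 0.064), and 3 were lower at 0.25 nM, where 30.1% and 33.9% of all genes were lower. With no shift of arrays ZNF567 (-0.27) and ZNF790 (-0.15) stayed lower at 0.5 nM, ZNF850 lay at -0.0067 with no call, and ZNF529 turned to 0.026. At 0.25 nM ZNF567 (-0.37) and ZNF529 (-0.20) then stayed lower, while ZNF790 (0.011) and ZNF850 (0.21) were called higher. The common fall of this run thus depends on the scaling. In the run from ZNF768 to ZNF689 on chromosome 16, 3 of 5 were higher at 0.5 nM (ZNF768 by 0.28, ZNF785 by 0.24 and ZNF764 by 0.22) and 2 at 0.25 nM, where 33.2% and 30.3% of all genes were higher. These 2 runs and their genes were named after the values were seen. The largest run, from ZNF737 to ZNF681 on chromosome 19, holds 27 ZNF genes of which 6 are members; 2 were lower at 0.5 nM (30.1% of all genes) and 1 higher at 0.25 nM (30.3%).

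Promoter sequence was compared next, over windows of 300 bases from 250 before to 50 after the RefSeq start, which were found for 200 of the 232 genes. The ETS core CCGGAAG, searched on both strands, lay in 84 windows (42.0%). It lay in 36.4% of the windows of ZNF genes below 6.5, in 20.5% of other genes at 6.5 or more, and in 10.7% of all promoters. The extended CCAAT box CCAATCA, which was picked after all 8-letter words of these promoters had been counted, lay in 43 (21.5%), against 22.1%, 9.20% and 7.28%. These shares were thus alike in ZNF genes above and below the threshold. The plain CCAAT box CCAAT, which lies within every extended one, lay in 47.0%, against 49.2%, 37.2% and 35.7% in the same order of sets. The CRE TGACGTCA lay in 13 windows of the 200, and in 3 of 195 windows of ZNF genes below 6.5. It lay in 3.45% of other genes at 6.5 or more and in 1.98% of all promoters. The GC box GGGCGG lay in 69.5%, against 54.4%, 72.7% and 44.6% in the same order of sets. It was thus slightly less common than in other genes at 6.5 or more. The TATA box TATAAA lay in 4 windows (2.00%), against 4.10% in ZNF genes below 6.5. Other genes at 6.5 or more and all promoters had higher shares of it still. The E-box CACGTG lay in 4.50%, against 6.15%, 10.8% and 7.43% in the same order of sets. Median GC content was 62.2%, against 58.3% over all promoters and 65.7% in other genes at 6.5 or more.

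**Figure D5:**
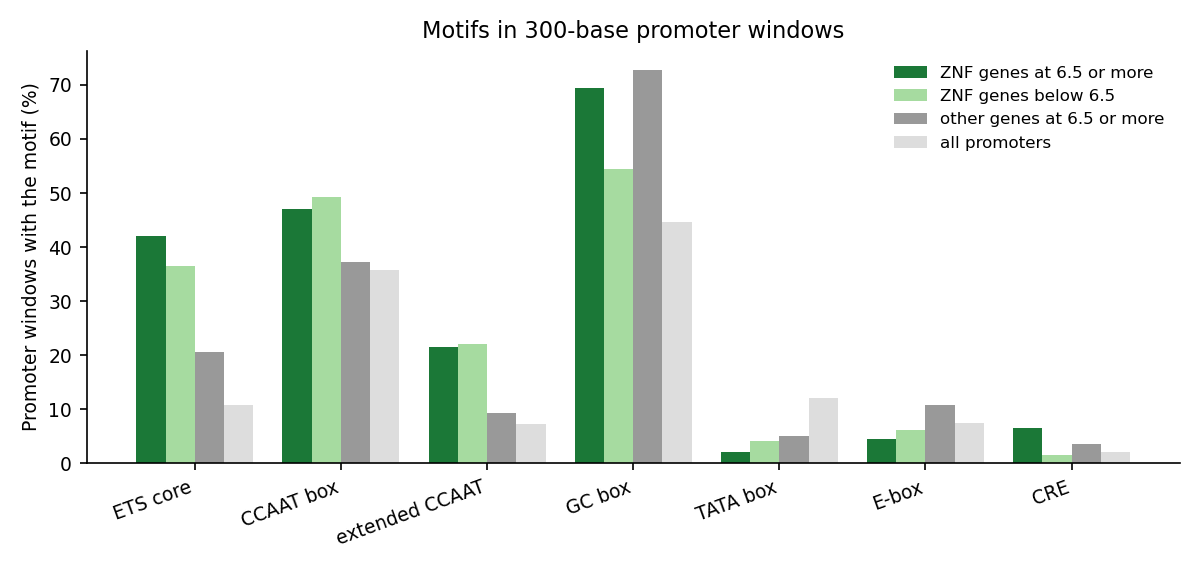
Share of promoter windows (vertical axis, percent) that hold each of 7 motifs on either strand, for ZNF genes at 6.5 or more, ZNF genes below 6.5, other genes at 6.5 or more and all RefSeq promoters. The ETS core (42.0% and 36.4%) and the extended CCAAT box (21.5% and 22.1%) are common in both ZNF sets, and the TATA box (2.00%) is rare in expressed ZNF genes.

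The promoters of ZNF302 and ZNF567, which fell, and ZNF143, which rose, are shown because each holds the ETS core, given in capitals as CCGGAAG or, on the other strand, CTTCCGG.
ZNF302 promoter, GRCh38.p14 chr19:34677428-34677727, + strand: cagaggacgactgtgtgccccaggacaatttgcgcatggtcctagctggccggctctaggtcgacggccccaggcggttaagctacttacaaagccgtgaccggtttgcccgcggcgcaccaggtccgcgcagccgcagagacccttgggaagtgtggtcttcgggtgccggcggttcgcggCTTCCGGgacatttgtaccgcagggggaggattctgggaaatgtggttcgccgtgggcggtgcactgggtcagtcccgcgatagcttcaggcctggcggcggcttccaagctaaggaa
ZNF567 promoter, GRCh38.p14 chr19:36666684-36666983, + strand: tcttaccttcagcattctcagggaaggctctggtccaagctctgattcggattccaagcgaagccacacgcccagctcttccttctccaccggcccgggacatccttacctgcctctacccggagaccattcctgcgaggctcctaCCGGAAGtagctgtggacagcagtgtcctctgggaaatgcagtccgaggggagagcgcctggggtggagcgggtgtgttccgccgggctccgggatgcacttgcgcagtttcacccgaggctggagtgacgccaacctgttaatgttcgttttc
ZNF143 promoter, GRCh38.p14 chr11:9460762-9461061, + strand: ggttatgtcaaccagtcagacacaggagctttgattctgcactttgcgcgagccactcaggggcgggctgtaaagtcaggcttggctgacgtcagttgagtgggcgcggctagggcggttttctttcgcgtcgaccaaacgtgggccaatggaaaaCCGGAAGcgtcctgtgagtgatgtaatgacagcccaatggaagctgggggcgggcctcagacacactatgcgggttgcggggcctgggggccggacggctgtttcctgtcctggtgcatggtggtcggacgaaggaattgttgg
The motif thus stands in promoters of genes that fell and of a gene that rose. Of the 84 genes with an ETS core, 16 were higher and 24 lower at 0.5 nM (median -0.039) and 16 higher and 25 lower at 0.25 nM (-0.027). Of the 116 without, 27 were higher and 30 lower (0.0013), then 28 higher and 32 lower (-0.016). Of all genes, 33.2% were higher and 30.1% lower at 0.5 nM, and 30.3% and 33.9% at 0.25 nM. Genes with the motif and genes without it were found on both sides of 0 in each comparison.

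Of the 43 genes with the extended CCAAT box, 25 lay on chromosome 19 and 20 also held the ETS core. Of these 43, 10 were higher and 5 lower at 0.5 nM (median 0.029) and 11 higher and 7 lower at 0.25 nM (0.026). Of the 157 without it, 33 were higher and 49 lower (-0.027), then 33 higher and 50 lower (-0.028). Read against the same shares of all genes (33.2% and 30.1%, then 30.3% and 33.9%), the 43 had a smaller share called in each direction at 0.5 nM. No test was made of this difference, since the motif was chosen on these promoters. Windows of 40 bases around the box, in capitals, are shown for the 8 brightest of these genes with room for flanks, to let the flanks be compared (RefSeq, GRCh38.p14).
ZNF791, chr19:12610860-12610899, + strand: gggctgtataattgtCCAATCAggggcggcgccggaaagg
ZNF281, chr1:200410220-200410259, - strand: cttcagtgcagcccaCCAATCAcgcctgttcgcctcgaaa
ZNF100, chr19:21767606-21767645, - strand: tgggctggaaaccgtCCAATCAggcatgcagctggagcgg
ZNF440, chr19:11814193-11814232, + strand: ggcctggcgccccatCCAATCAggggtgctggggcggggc
ZNF830, chr17:34961471-34961510, + strand: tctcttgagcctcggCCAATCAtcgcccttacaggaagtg
ZNF85, chr19:20923155-20923194, + strand: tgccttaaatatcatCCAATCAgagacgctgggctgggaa
ZNF441, chr19:11766951-11766990, + strand: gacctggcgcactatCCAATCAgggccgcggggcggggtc
ZNF79, chr9:127424365-127424404, + strand: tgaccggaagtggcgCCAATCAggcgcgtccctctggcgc
Of these 8 windows 5 lie on chromosome 19. Position by position, 24 of the 33 flanking bases were identical between ZNF440 and ZNF441, the closest of the 28 pairs, and the median over pairs was 11.5.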

How the data were processed

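Per the labels' protocols, RNA was labelled with a whole-transcript (WT PLUS) biotin kit. RMA and the packages oligo and affy appear in the submitters' processing notes, with versions and genome build not given in the sources used here. The deposited values are log2 intensities, 1 table of 44629 rows and 9 arrays; their number limits the precision. A row was named where the platform annotation gives 1 symbol (15835 rows, 0 with several, 28794 with none here), every gene ID matched RefSeq GRCh38.p14, and the brightest row was kept per gene (8 of the 232 ZNF genes had 2 rows). Values in replicate 3 of 0.25 nM with under 10 digits were left out (19.1% of genes), which also removes some undamaged values that end in a zero. Arrays were shifted to one median. limma 3.58.1 in R 4.3.3 was fitted to all genes with a mean per group, without replicate block or intensity trend, and to the 3 group means with a trend, and both fits were tested on simulated data. Deviations from group means correlated from 0.14 to 0.59 in all 9 pairs of arrays with the same replicate number. Replicates 2 and 3 of different groups correlated as well, at 0.16 to 0.36, and replicate 1 correlated negatively with both, at -0.46 to -0.20. The numbers thus set replicate 1 apart, and a pairing of replicates 2 and 3 is not shown. The blocked fit was an alternative, beside no shift, quantile normalization and damaged values kept. Others were the mean of rows, dim genes dropped, other level thresholds, and each array left out.

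The members, lists, tests and motifs were chosen with earlier results of these data known. Named genes were ZNF287, members past the group-level test, the 8 largest rises and falls per dose among those past the within-group test with arrays that do not overlap control, the 10 brightest, the 3 nearest the threshold on each side, those with a listed role, the 5 most spread within groups, and KRAB cofactors that passed, of which a part is named. Genes most like ZNF287 over the 9 arrays were not sought, since the arrays fall into 3 clusters. Finger counts and protein domains were not analysed here. Sequences are RefSeq's, GRCh38.p14.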

Additional observations from a re-analysis of the deposited data

Results flagged for a closer look

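The doses differed from each other in 121 of the 232 ZNF genes by the within-group limma test, at a background of 62.2% of all genes. Within that count, 5 named genes passed against control at both doses in opposite directions and also between the doses. They do not stand alone. Members outside the named list met the same rule, such as ZNF284 (-0.23 at 0.5 nM and 0.27 at 0.25 nM) and ZNF551 (0.17 and -0.18). Neither the number of such members nor the share over all genes was counted, so the 5 are examples. The difference of 0.5 nM minus 0.25 nM was 0.23 for ZNF106, -0.66 for ZNF280C, 0.29 for ZNF326, -0.69 for ZNF37A and 0.34 for ZNF275. For ZNF106 and ZNF326 the opposite directions rest on the shift of arrays, without which neither lay below control at 0.25 nM. ZNF275 was not among the genes checked without the shift. ZNF37A and ZNF275 reach 6.5 only through their highest groups, so their values are a description. The difference of ZNF37A from control at 0.25 nM (0.11) was not called without any 1 control array or any 1 array at 0.25 nM (0.11 each time).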

How the results depend on the processing

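With no shift of arrays, 83 members were higher and 35 lower at 0.5 nM (median 0.073), 108 higher and 22 lower at 0.25 nM (0.13), 38 were higher at 0.5 than at 0.25 nM (-0.064), and the group-level median was 0.11. Signs then turned at 0.5 nM for ZNF107 (0.020), ZNF134 (0.035), ZNF148 (0.036), ZNF217 (0.046), MORC2 (0.061) and PPHLN1 (0.018), and at 0.25 nM for ZNF106 (0.0011), ZNF146 (0.024), ZNF148 (0.093), ZNF207 (0.092), ZNF326 (0.0078), ZNF524 (0.069), ZNF532 (0.047), CHD4 (0.023), DAXX (0.092) and HDAC1 (0.054). Quantile normalization turned MORC2 at 0.5 nM (0.0088). The mean of rows turned ZNF322 at 0.5 nM (-0.057) and, at 0.25 nM, DAXX (0.14) and SUV39H1 (0.016). It skips left-out values, so replicate 3 at 0.25 nM can rest on 1 row alone, and its values at that dose are not read as changes. ZNF320 at 0.25 nM turned without control replicate 1 (-0.048) or 0.25 nM replicate 2 (-0.011), in a range up to 0.060 over arrays left out. With level thresholds of 6 and 7 in place of 6.5, 74 and 32 members were higher at 0.5 nM, and with 7, 40 were lower at 0.25 nM and 39 higher at 0.5 than at 0.25 nM. Leaving out 1 array gave 39 to 52 members higher and 53 to 68 lower at 0.5 nM, 39 to 48 higher and 54 to 71 lower at 0.25 nM, and 54 to 66 higher and 47 to 59 lower between doses. With the replicate block, 119, 117 and 127 members passed in the 3 comparisons in place of 112, 113 and 121, where 65.7%, 67.4% and 65.4% of all genes passed. Beside the calls named in the text, it lost those of ZNF12 at 0.5 nM (-0.16) and, between doses, ZNF567 (0.17) and ZNF878 (-0.32). It gained that of ZNF335 (-0.10) at 0.5 nM and those of ZNF121 (0.16) and ZNF317 (-0.15) at 0.25 nM. Between doses it gained those of ZNF317 (0.12), ZNF350 (-0.15), ZNF484 (0.44), ZNF622 (0.32) and ZNF841 (-0.24). ZNF385B differed by 0.36 at 0.5 nM in this fit, a description with no test since its 0.25 nM arrays gave it its place. Leaving out the 13 genes that reach 6.5 only through their highest group, a choice made after seeing the data, moved no count by over 1.5 times. Alternatives not listed kept the counts within 1.5 times, and the cause of these moves was not tested.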

Other observations

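The within-group test was also read for other zinc finger families, beside shares of all genes of 33.2% higher and 30.1% lower at 0.5 nM and 30.3% higher and 33.9% lower at 0.25 nM. Of 32 ZBTB genes at 6.5 or more, which pair zinc fingers with a BTB domain, 7 were higher and 15 lower at 0.5 nM (median -0.058) and 6 higher and 14 lower at 0.25 nM (-0.075). Of 9 KLF genes, 1 was higher and 1 lower at 0.5 nM and 3 higher and 2 lower at 0.25 nM. Of 7 ZSCAN genes, 1 was higher and 2 lower, then 2 higher and 3 lower, and of 4 ZKSCAN genes, which carry both SCAN and KRAB domains, 0 passed in either comparison (limma). Of 8 ZFP genes, 1 was higher and 2 lower, then 1 higher and 3 lower. Of 11 ZC3H genes, whose fingers bind RNA, 0 were higher and 1 lower, then 3 higher and 3 lower. The 1 ZDHHC gene passed in neither comparison. By the group-level test 0 genes of these families passed.

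Replicate 1 stood furthest below replicates 2 and 3, on the mean over groups, in ZNF622 (-0.60), ZNF350 (-0.57) and ZNF451 (-0.52), and furthest above in ZNF358 (0.41), ZNF704 (0.41) and ZNF112 (0.30), among members where it was the lowest or highest array of every group.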
